A study of Trichoplusia ni and Spodoptera exigua with 20 samples.

Results

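The genes described here were 100 of the 10610 genes in the normalized expression table of the cabbage looper, *Trichoplusia ni*, a moth whose larvae feed on cruciferous plants. They were nearly silent in fat bodies of control larvae and had the highest levels after consumption of either of the HDAC inhibitors tested. Of the 10610 genes, 913 had a normalized value under 1 in all 3 control libraries. For each of these the values were put on the scale log2(value + 1) and averaged over the libraries of each treatment, the smaller of the SFN mean and the TSA mean was taken, and the 100 genes with the highest result were kept. The genes were thus chosen by the treated and control values themselves, so a low control level and a higher level under both treatments were fixed by the choice and were not tested.

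Groups of wild-type larvae were compared at about Day 10. Larvae in the SFN group (4 libraries) consumed artificial diet covered with 70 mM sulforaphane, and larvae in the TSA group (4 libraries) consumed diet covered with 330 µM trichostatin A. Control larvae (3 libraries) consumed diet that received only EtOH, the carrier in which both inhibitors were dissolved and which was evaporated before feeding. All diets contained antibiotics, and fat bodies of 3 to 5 larvae were pooled for each library, so differences between single larvae could not be seen. The doses of SFN and TSA were not matched. The count of reads on genes ran between 17184377 and 23518486 per library. A normalized value of 1 stood for between 12.2 reads (SFN replicate 1) and 39.2 reads (control replicate 3). Library codes fall into a pair of series, and the second series held only SFN replicate 4, TSA replicate 4 and control replicate 3.

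Histone deacetylases (HDACs) are enzymes that take acetyl marks off the tails of histones, and deacetylated chromatin is mostly compact and little transcribed. SFN is an isothiocyanate formed when tissue of a cruciferous plant is crushed, and TSA is a hydroxamic acid from *Streptomyces* that inhibits several HDAC enzymes. The study reported that SFN in the diet did not lower HDAC activity in *T*. *ni*. It also stated that this activity stayed high in the fat body under SFN, TSA or both. The insect fat body stores nutrients and makes most of the proteins of the hemolymph, and it also makes antimicrobial peptides. The tables name genes by identifiers alone, and 0 of them could be matched to a symbol in the RefSeq table at hand (17445 genes). The function of the 100 genes is therefore not given, no sequence is shown, and the fat body label could not be checked against marker genes. In a bulk library, more cells that transcribe a gene and more RNA per cell cannot be told apart.

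The chosen genes differed widely in level. The result of the rule ran between 1.13 and 4.60 on the log2 scale (median 1.43). The median over the 100 genes of the mean normalized value was 3.32 in SFN libraries, 2.47 in TSA libraries and 0.387 in control libraries. In 7 genes the highest treated value was over 100, in 38 it was between 10 and 100, and in 55 it was under 10. The control signal was low but not absent. Between 1 and 66 reads were counted per gene over the 3 control libraries (median 32), 25 genes had no read in at least 1 control library, and 0 genes had none in all of them.

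Most of the genes were not expressed in every treated library. Taking a normalized value of at least 1 as expressed, 13 genes were expressed in all 8 treated libraries, 18 in 7, 36 in 6, 23 in 5, 8 in 4 and 2 in 3. Expression in all 8 was found in 1.42% of the 913 genes, and these were the same 13 genes, while 63.7% of all 10610 genes reached it. Without SFN replicate 2, the library that expressed the fewest of the genes, 20 genes were on in all treated libraries left. All 4 SFN libraries expressed 21 of the genes, and all 4 TSA libraries expressed 31. Of the 813 genes that were also under 1 in all controls but were not chosen, 329 were expressed in no treated library and 7 in 6 of them, with none in more. In 26 of the 100 genes the lowest treated library lay above the highest control library in normalized value, a pattern found in 9.23% of all genes. In the other 74 genes at least 1 treated library lay at or under the highest control. The label of genes switched on by inhibitors thus held for each treated library in a minority of the 100, and the rest were on in some pools of treated larvae and at control level in others.

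**Figure D1:**
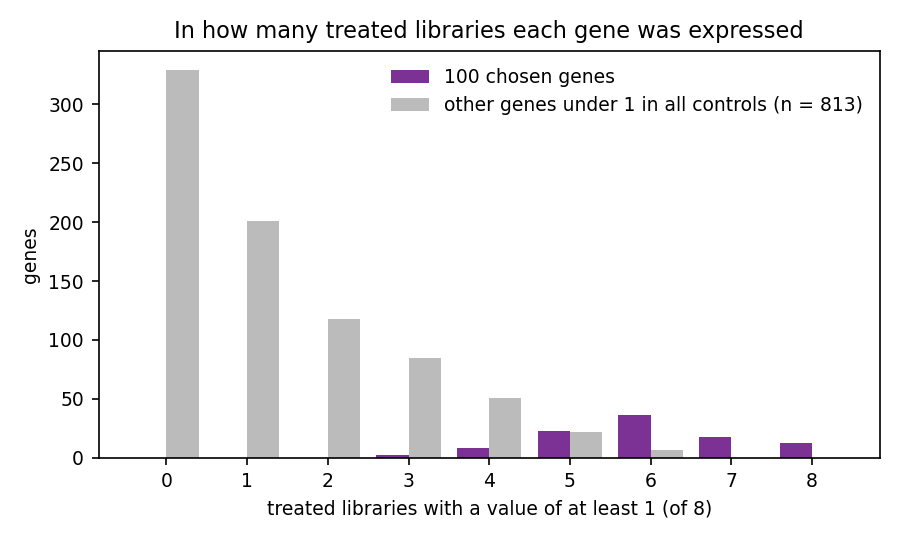
Number of genes (vertical axis) by the number of the 8 treated libraries in which the normalized value was at least 1 (horizontal axis), for the 100 chosen genes (purple) and the 813 other genes under 1 in all controls (grey). The chosen genes peak at 6 libraries with 36 genes, and 13 reach 8, whereas 329 of the other genes stand at 0.

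The libraries of 1 treatment were far from alike. The number of the 100 genes expressed was 71, 54, 90 and 86 in SFN replicates 1 to 4 and 77, 89, 62 and 70 in TSA replicates 1 to 4, against 0 in each control by the rule. Their summed normalized value was 1348, 1491, 2132 and 2539 in the SFN libraries and 260, 921, 216 and 5536 in the TSA libraries, against 43.2, 29.8 and 43.7 in the control libraries. All sums of treated libraries lay above those of the controls, and TSA replicates 1 and 3 were the lowest of the treated ones. A few genes made up most of the sum in some libraries. The 5 highest genes held 77.9%, 76%, 70.1% and 83.5% of it in the SFN libraries and 22.7%, 50.8%, 29.5% and 89.4% in the TSA libraries. The median of the 100 genes differed less, at 2.09, 1.20, 3.61 and 2.25 in the SFN libraries and 1.66, 2.60, 1.40 and 1.72 in the TSA libraries, against 0.393, 0.219 and 0.434 in the control libraries.

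**Figure D2:**
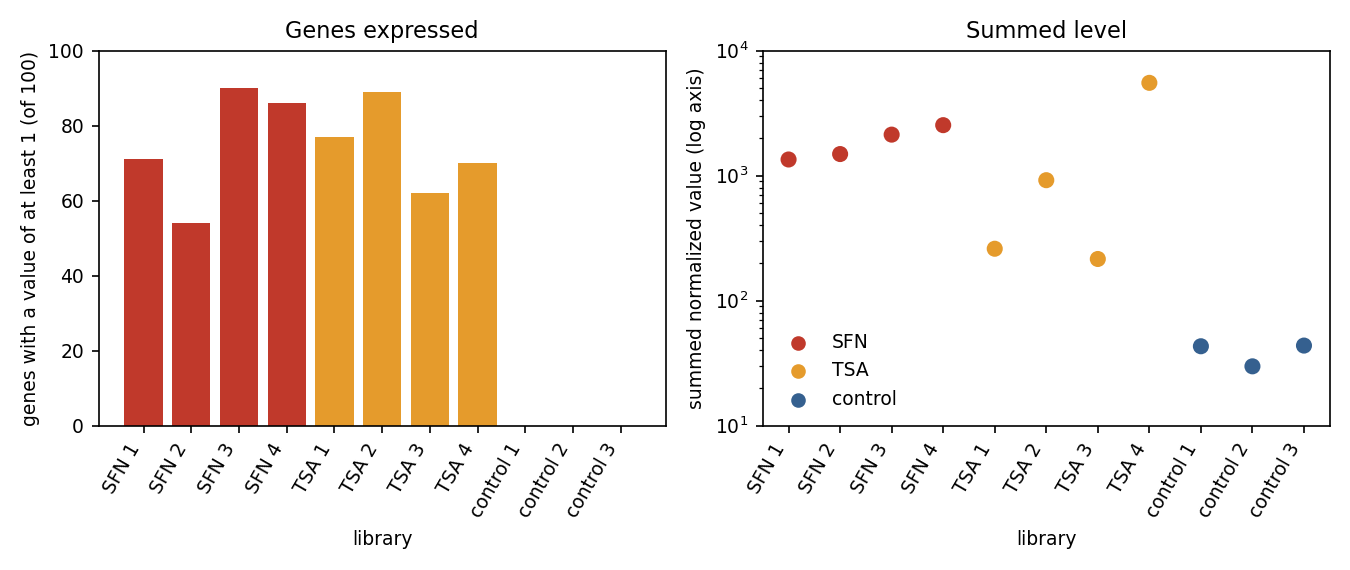
Left, number of the 100 genes with a normalized value of at least 1 in each library; right, the summed normalized value of the 100 genes on a log axis. Bars and points are single libraries, coloured by SFN, TSA and control. The sum is 5536 in TSA replicate 4 and 216 in TSA replicate 3, and the controls lie between 29.8 and 43.7.

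The spread within a treatment was larger for these genes than for the table as a whole. This is a description, since the rule ranked the genes by the same treated values. The table as a whole also includes 896 genes expressed in no treated library. The median SD on the log2 scale was 1.04 over the SFN libraries and 0.77 over the TSA libraries for the 100 genes, compared with 0.46 and 0.33 for all genes. The control SD was 0.20, which the ceiling of 1 kept small.

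The 100 genes showed 41 different patterns of expressed and not expressed over the 8 treated libraries, of which 27 held a single gene. The 3 largest patterns held 41 genes, and the other 59 genes were spread over the rest. Set A comprised 13 genes expressed in SFN replicates 2, 3 and 4 and TSA replicates 2 and 4 and under 1 in SFN replicate 1 and TSA replicates 1 and 3. Set B comprised 15 genes with nearly the reverse pattern, expressed in every treated library except SFN replicate 2 and TSA replicate 4. Set C was the 13 genes expressed in all 8. Both A and B were expressed in SFN replicates 3 and 4 and in TSA replicate 2. The pattern of set A was shown by 41 of all genes and that of set B by 35. Since the patterns were read from the same values, they are descriptions of these libraries, and no group of libraries was formed from them.

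**Figure D3:**
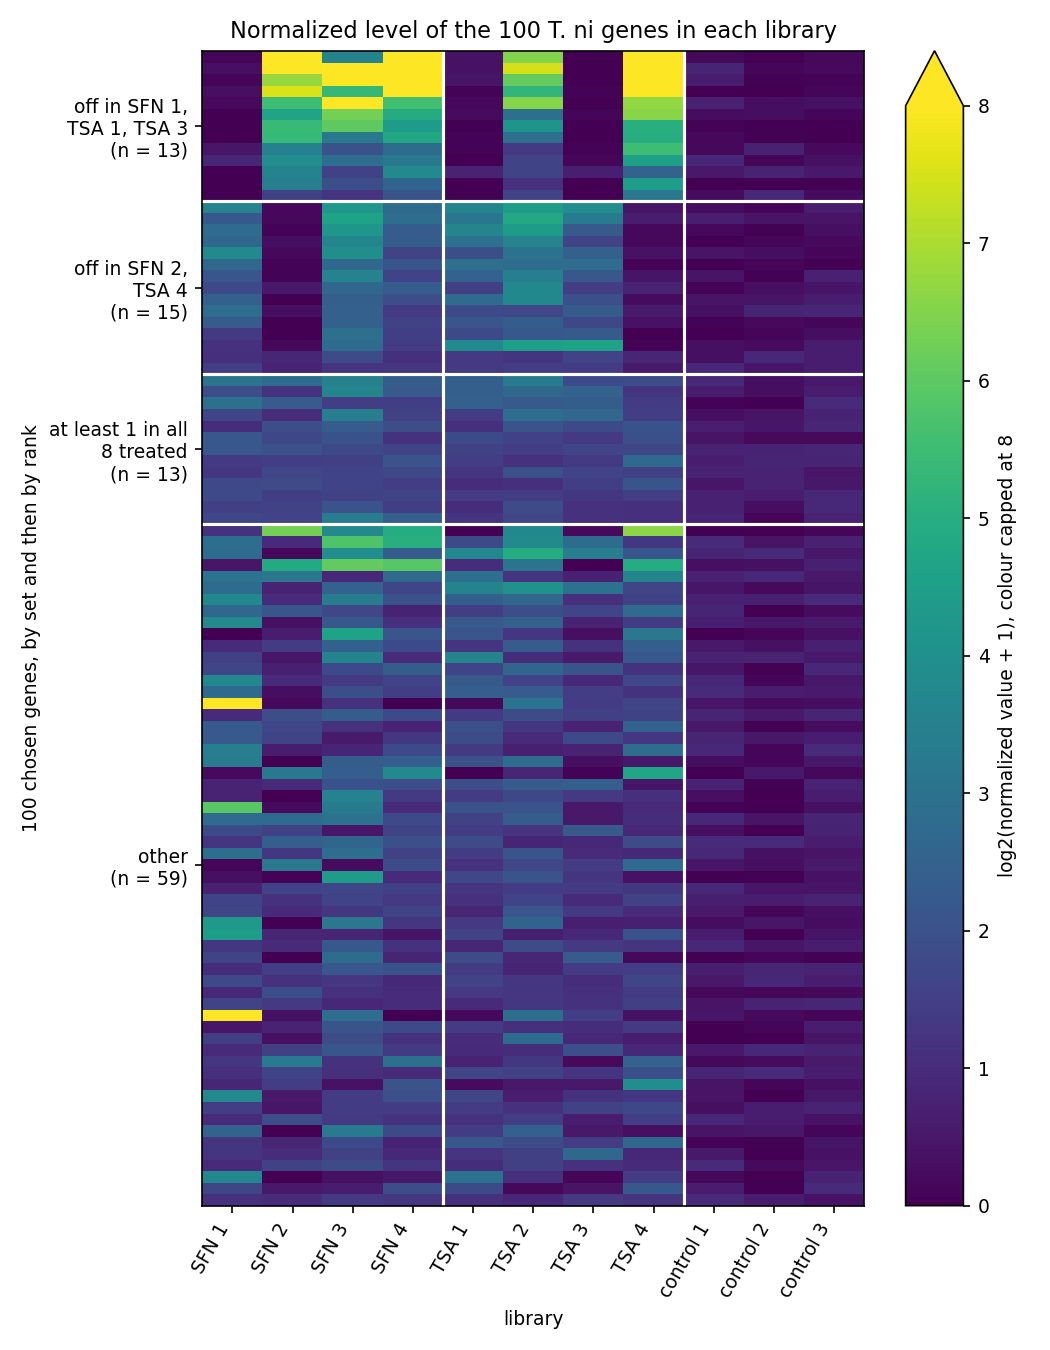
Log2(normalized value + 1) of each of the 100 genes (rows) in each library (columns: SFN, TSA, control), with the colour capped at 8. From the top, rows are set A (off in SFN 1, TSA 1 and TSA 3, 13 genes), set B (off in SFN 2 and TSA 4, 15 genes), set C (expressed in all 8 treated libraries, 13 genes) and the other 59 genes. On a colour scale up to 8, low expressed values such as those of set C also appear dark, so a dark cell need not be at control level.

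Set A held the most highly expressed genes, including those of rank 1 to 5. Tni22G00390, at rank 1, had values of 0.0818, 457, 11.0 and 366 in the SFN libraries and 0.313, 90.5, 0 and 2884 in the TSA libraries, against 0.131, 0 and 0.128 in the control libraries. Its treated values either exceeded every control by far or fell among them, with SFN replicate 1 and TSA replicates 1 and 3 in the control range or close to it. Tni13G00580, at rank 2, had 0.245, 301, 616 and 910 in the SFN libraries and 0.313, 178, 0 and 752 in the TSA libraries, against 0.786, 0.109 and 0.153 in the control libraries. The same 3 treated libraries lay under the highest control. Tni28G00270 had 0.0818, 108, 359 and 469 in the SFN libraries and 0.375, 68.5, 0 and 534 in the TSA libraries, against 0.524, 0.0364 and 0.0511 in the control libraries. Tni25G01610 had 0.245, 187, 39.4 and 316 in the SFN libraries and 0.0625, 37.8, 0.0499 and 678 in the TSA libraries, against 0, 0 and 0.102 in the control libraries. The libraries that expressed these genes differed in order, since SFN replicate 3 was the lowest SFN library expressing Tni22G00390 but held the highest of all values of Tni22G00360. For Tni22G00360 the values were 0.164, 44.6, 373 and 46.7 in the SFN libraries and 0.125, 92.9, 0 and 102 in the TSA libraries, against 0.655, 0.219 and 0.281 in the control libraries. Tni18G00300, at rank 8, had 0, 24.4, 79.6 and 29.6 in the SFN libraries and 0.188, 6.79, 0.0997 and 94.9 in the TSA libraries, against 0.197, 0.219 and 0.0766 in the control libraries.

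Over the 13 genes of set A, the highest value was in TSA replicate 4 for 8 genes, and TSA replicate 2 was the lowest of the 5 expressing libraries for 9. The sum of the set was 2.04, 1251, 1565 and 2220 in the SFN libraries and 2.25, 507, 0.897 and 5208 in the TSA libraries, against 4.13, 2.95 and 1.89 in the control libraries. The sums of SFN replicate 1 and TSA replicate 1 thus lay within the range of the controls, and that of TSA replicate 3 lay under it. Tni13G03950, at rank 7, missed set A only because SFN replicate 1 stood just over the threshold. It had 1.23, 79.8, 12.6 and 30.2 in the SFN libraries and 0, 12.3, 0.15 and 97.3 in the TSA libraries, against 0, 0 and 0.102 in the control libraries.

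Set B was expressed at lower levels, with no value over 27.4. Tni00G00440, at rank 6, had 11.0, 0.115, 18.2 and 5.76 in the SFN libraries and 11.3, 20.2, 14.0 and 0.369 in the TSA libraries, against 0.197, 0.0728 and 0.511 in the control libraries. Only SFN replicate 2 and TSA replicate 4 overlapped the controls. Tni17G04180, at rank 9, had 3.6, 0.115, 24 and 6.32 in the SFN libraries and 7.81, 27.4, 8.72 and 0.554 in the TSA libraries, against 0.59, 0.328 and 0.332 in the control libraries. Tni25G04550, at rank 11, had 5.89, 0.0573, 17.6 and 4.00 in the SFN libraries and 11.4, 20.4, 3.74 and 0.123 in the TSA libraries, against 0.131, 0.0364 and 0.255 in the control libraries. The set summed to 70.1, 3.09, 138 and 43.9 in the SFN libraries and 83.8, 162, 85.4 and 4.98 in the TSA libraries, against 3.67, 3.82 and 5.67 in the control libraries. TSA replicate 2 and SFN replicate 3 were each the highest library for 6 of the 15 genes, and SFN replicate 4 was the lowest of the 6 expressing libraries for 8. Tni31G01450, at rank 10, was off only in SFN replicate 2 and was highest in SFN replicate 3. Its values were 6.46, 0.974, 54.7 and 31.8 in the SFN libraries and 2.50, 12.9, 6.13 and 1.48 in the TSA libraries, against 0.983, 0.328 and 0.664 in the control libraries.

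**Figure D4:**
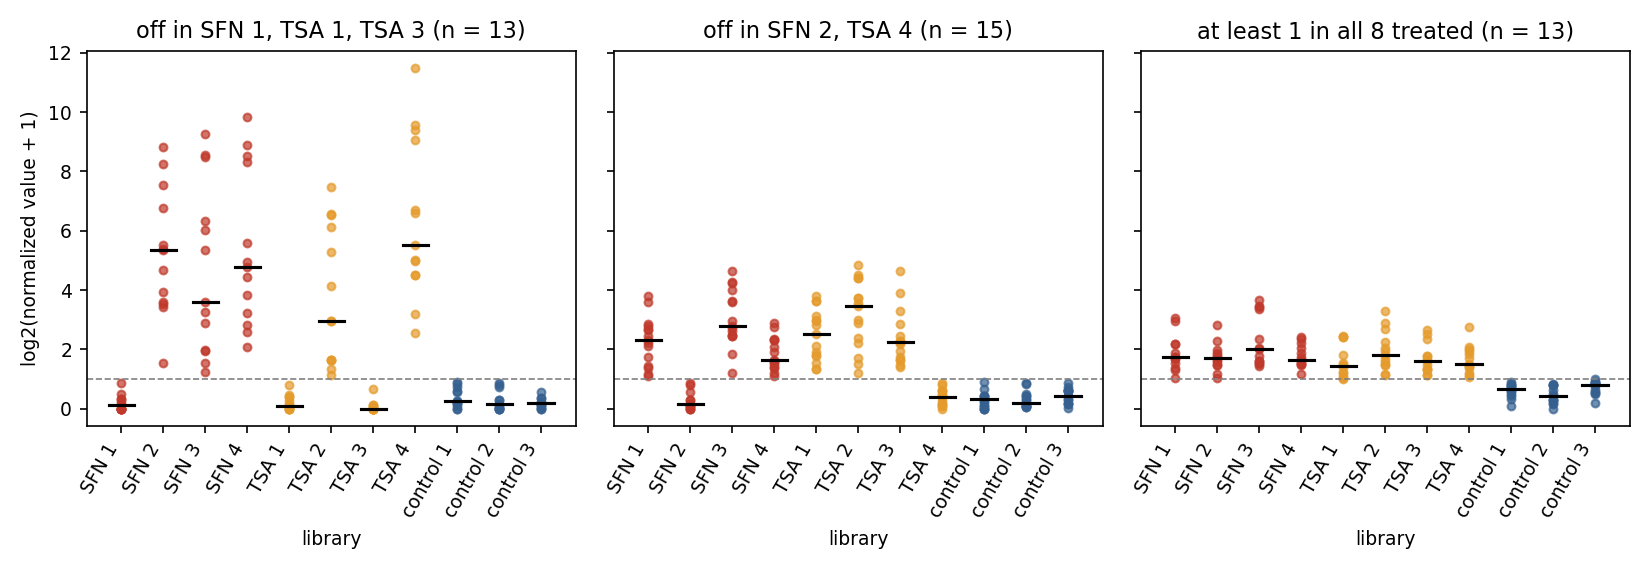
Log2(normalized value + 1) of the genes of set A (left), set B (middle) and set C (right) in each library. Points are genes, black bars are medians over the genes of a set, and the dashed line marks a normalized value of 1. Set A reaches 2884 in TSA replicate 4 and stays under 1 in SFN 1, TSA 1 and TSA 3, and set C stays between 1.00 and 11.5 in all treated libraries.

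Set C was even but low. Over its 13 genes, treated values lay between 1.00 and 11.5. In all 13 the lowest treated library exceeded the highest control, which the ceiling of 1 and the threshold of 1 together fixed. This gap also rested on the scaling, since a value of 1 stood for 12.2 reads in SFN replicate 1 and 39.2 in control replicate 3. Tni03G02040 of this set had 31 reads but a value of 0.791 in control replicate 3. With libraries scaled by their totals alone, 9 of the chosen genes were expressed in all treated libraries. On that scale the gap did not hold in Tni03G02040. Its value of 1.55 in SFN replicate 1 stood for fewer reads than the 31 of control replicate 3, also in proportion to the library totals. The rest of the set was not examined on that scale. Tni08G00400, at rank 12, was the highest gene of set C. It had 7.36, 6.13, 10.1 and 4.13 in the SFN libraries. In the TSA libraries it had 4.38, 8.83, 2.44 and 2.58, against 0.852, 0.219 and 0.46 in the control libraries. Its treated and control libraries did not overlap, and the lowest treated library was TSA replicate 3. The medians of the set were 2.37, 2.23, 3.05 and 2.14 in the SFN libraries and 1.69, 2.52, 2.04 and 1.85 in the TSA libraries, against 0.59, 0.328 and 0.74 in the control libraries.

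A few genes were high in 1 treated library alone, and these were picked out after their values were seen. Tni21G01160 had 636 in SFN replicate 1, against 0.115, 1.23 and 0 in the other SFN libraries. Its TSA values were 0.125, 7.25, 1.65 and 2.15, and its control values were 0.393, 0.182 and 0.23. Tni16G00490 had 314 in SFN replicate 1, against 0.287, 6.36 and 0 in the other SFN libraries. In each of these genes SFN replicate 1 held over 80% of the summed treated values, at 98.1% and 95.4%, and no other gene of the 100 passed that share. Each of 16 genes had over 50% of its summed treated values in 1 library.

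The 10 genes expressed in only 3 or 4 treated libraries had ranks from 51 to 99. Tni12G01360, on in 3 libraries, had 21.3, 0.802, 0.773 and 0.372 in the SFN libraries and 2.13, 0.585, 0.897 and 3.02 in the TSA libraries, against 0.524, 0 and 0.357 in the control libraries. Tni02G02710, also on in 3, had 0.818, 1.72, 0.318 and 3.16 in the SFN libraries and 0.188, 0.468, 0.449 and 14.3 in the TSA libraries, against 0.328, 0.109 and 0.281 in the control libraries. Each had a single library far above its others. Of the 8 genes on in 4, the pair of lowest rank was named by rule. Tni13G01090 was highest in SFN replicate 1 (12.2) and TSA replicate 1 (7.00), against control values of 0.131, 0 and 0.715. Tni12G03990, at rank 99, had at most 3.57 in a treated library (TSA replicate 4).

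The edge of the list fell among genes of nearly equal value. Tni25G01270, the last gene chosen, had a rule value of 1.13 and was expressed in 7 of the treated libraries, with 1.23, 1.03, 1.59 and 1.39 in the SFN libraries and 1.13, 0.877, 1.5 and 1.29 in the TSA libraries, against 0.983, 0.546 and 0.306 in the control libraries. Tni17G00390, the first gene left out, had a rule value of 1.11 and was expressed in 4. Its values were 2.04, 0.63, 3.09 and 0.604 in the SFN libraries and 3.81, 0.936, 0.0499 and 1.23 in the TSA libraries, against 0.655, 0.911 and 0.102 in the control libraries. The list also rested on the controls. When the rule was run without control replicate 1, 2 or 3, the new 100 genes held 46, 64 and 48 of those described here, and with the library total in place of the TMM factor they held 62.

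SFN and TSA were compared over the whole table, and the values of the 100 genes in this comparison are a description. Ranking by the smaller of the SFN and TSA means favoured genes with like means, so a small difference between the treatments was in part fixed by the choice. In the quasi-likelihood test of edgeR, with p-values adjusted by Benjamini-Hochberg over all 10610 genes, 0 genes (0%) differed between SFN and TSA at an adjusted p under 0.05, while 720 (6.79%) had an unadjusted p under 0.05, and the lowest adjusted p was 0.651. DESeq2's Wald test called 530 of all genes and edgeR's likelihood ratio test 29, and none of the 3 tests called any of the 100. The median log2 fold change, SFN over TSA, was 0.24 over the 100 genes and 0.16 over all genes. In the quasi-likelihood test 1% of the 100 had an unadjusted p under 0.05, compared with 6.79% of all genes. The rule favoured like means, and the spread within a treatment was also larger for these genes. What made the share low was not tested.

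The largest fold changes in either direction were those of 6 genes in which SFN and TSA libraries overlapped. Tni00G03640 had 0.164, 8.37, 4.23 and 13.0 in the SFN libraries and 0, 0.819, 0.0499 and 25.3 in the TSA libraries, against 0, 0.473 and 0.128 in the control libraries. Its log2 fold change, SFN over TSA, was 2.86 ± 1.26 (SE). Tni13G03950, whose values are given above, followed with 2.72 ± 1.69 (SE). Tni20G00290 had 0.818, 14.3, 6.41 and 8.45 in the SFN libraries and 0, 2.11, 0.0997 and 22.0 in the TSA libraries, with a log2 fold change of 2.71 ± 1.74 (SE). Without the replicate number in the model these 3 fold changes were -0.02, 0.18 and 0.31. In all 3 of these genes the highest value was in TSA replicate 4, against the direction of the fitted change. Tni00G00410 was the most TSA-sided gene, with 1.23, 0.115, 5.96 and 1.67 in the SFN libraries and 13.0, 21.9, 24.1 and 0.0615 in the TSA libraries, against 0.262, 0.146 and 0.511 in the control libraries. Its log2 fold change was -2.60 ± 1.69 (SE), and TSA replicate 4 fell under the lowest SFN library. Tni12G04750 had 1.31, 0.802, 2.50 and 0.743 in the SFN libraries and 3.5, 2.63, 1.69 and 5.23 in the TSA libraries, with -1.51 ± 0.69 (SE). Tni16G01070 had 6.13, 0.745, 4.68 and 2.18 in the SFN libraries and 10.9, 15.7, 7.03 and 2.15 in the TSA libraries, with -1.37 ± 0.73 (SE).

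The rule was also run on the first code series alone, so that SFN replicate 4, TSA replicate 4 and control replicate 3 played no part in the choice. Of the 100 genes chosen this way, 52 were among the 100 described above. In the libraries left out, 91 of them were expressed in SFN replicate 4 and 76 in TSA replicate 4, and 48 were expressed in control replicate 3. Of the 1117 other genes that were under 1 in the first 2 controls, 20.3% were expressed in SFN replicate 4 and 28.6% in TSA replicate 4. In control replicate 3 it was 22.9% of them, so the chosen genes were also more often expressed in the control left out. The medians were 2.90 and 2.28 in the SFN and TSA libraries, against 0.932 in the control library. These gaps rested in part on the scaling. A value of 1 stood for 21.5 reads in SFN replicate 4, 16.3 in TSA replicate 4 and 39.2 in control replicate 3. How far they held with libraries scaled by their totals alone was not tested. Both treated libraries exceeded the control in 72 of the 100 genes, compared with 40.9% of the 1117 other genes that were under 1 in the first 2 controls. Those other genes had been passed over by a ranking on treated level, and their medians were 0.325 in SFN replicate 4 and 0.615 in TSA replicate 4. The shares are therefore descriptions, since the choice favoured genes of higher level. With 1 library per group in that series, no test was made.

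The positions of the genes were read from their identifiers, which count upwards in steps of 10 within each number prefix (Tni00, Tni01 and so on). Coordinates were not at hand, so whether this order follows the genome was not tested, and neighbours here are neighbours in identifier order. The 100 genes carried 30 of the 32 prefixes, and 11 carried Tni00, which held 2.57% of the genes in the count table. Of the 100 genes, 10 stood directly next to another, in 5 pairs: Tni00G03220 and Tni00G03230, Tni16G01060 and Tni16G01070, Tni17G04170 and Tni17G04180, Tni20G03250 and Tni20G03260, and Tni25G01610 and Tni25G01620. A position next to one of the 100 was held by 1.31% of the 14284 other genes of the count table and by 2.34% of the 813 genes under 1 in all controls that were not chosen. Within 5 places of another chosen gene stood 26 of the 100, compared with 5.99% of the other genes and 7.63% of those 813. These shares are descriptions, since chosen genes were compared with genes that the rule had passed over. The 26 genes formed 11 stretches, 8 of 2 genes, 2 of 3 genes and 1 of 4, and 0 stretches of 3 or more ran without a gap. The remaining 74 had no chosen gene that close.

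In 2 of the 5 adjacent pairs both genes showed the same pattern. In the pair of set A, Tni25G01620 had 0, 9.74, 2.82 and 4.97 in the SFN libraries and 0, 1.17, 0 and 21.6 in the TSA libraries, against 0, 0 and 0.0255 in the control libraries. As in Tni25G01610, TSA replicate 4 was the highest and TSA replicate 2 the lowest of the expressing libraries, while SFN replicates 2 and 4 changed places. Tni16G01060, next to Tni16G01070, had 6.05, 0.115, 14.0 and 4.04 in the SFN libraries and 12.3, 30.1, 9.72 and 3.38 in the TSA libraries, against 0.786, 0.947 and 0.434 in the control libraries. In both genes of this pair SFN replicate 2 was the only treated library under 1 and TSA replicate 2 was highest. Of the 13 genes of set A, 5 stood within 5 places of another gene of the set, as did 2 of the 15 genes of set B and 0 of set C.

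The longest stretch ran over 12 places, with chosen genes at Tni22G00320, Tni22G00360, Tni22G00390 and Tni22G00430, the first 3 of which belonged to set A. Tni22G00320 was low, with at most 8.06 in TSA replicate 4. Genes between them that were not chosen showed the same libraries at higher levels, and they are named here because of those values. Tni22G00330 had 1.55, 3658, 631 and 1629 in the SFN libraries and 1.88, 390, 0.15 and 7315 in the TSA libraries, against 1.77, 0.765 and 0.893 in the control libraries, so that control replicate 1 kept it out of the list. Tni22G00340 had 0.164, 550, 313 and 765 in the SFN libraries and 0.5, 182, 0 and 934 in the TSA libraries, against 1.31, 0.219 and 0.255 in the control libraries. Not all genes of the stretch did so. Tni22G00370 was highest in a control library, with 81.3 in control replicate 2 and at most 4.5 in a treated library. The log2 fold change of Tni22G00330 was 6.63 ± 3.93 (SE, adjusted p = 0.27 in edgeR) for SFN over control and 3.09 ± 3.42 (SE, adjusted p = 0.568 in edgeR) for TSA over control. Neither was called.

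Similar genes stood near Tni28G00270 and Tni18G00300 of set A, and they too are named because of their values. Tni28G00290, 2 places after Tni28G00270, had 0.818, 1189, 672 and 1054 in the SFN libraries and 0.75, 115, 0 and 901 in the TSA libraries, against 2.82, 0.437 and 0.0511 in the control libraries. Tni18G00330, 3 places after Tni18G00300, had 0.818, 2373, 682 and 1365 in the SFN libraries and 1.19, 411, 0.0997 and 5756 in the TSA libraries, against 1.31, 0.51 and 0.511 in the control libraries. As in set A, SFN replicate 1 and TSA replicates 1 and 3 fell to the level of the controls in both genes. Other genes next to set A went the other way. On either side of Tni23G00490, Tni23G00480 and Tni23G00500 were called lower under TSA. Their log2 fold changes for TSA over control were -5.61 ± 1.09 (SE, adjusted p = 0.0232 in edgeR) and -9.08 ± 1.93 (SE, adjusted p = 0.0394 in edgeR). Of the 28 genes outside the 100 that showed the pattern of set A, 5 stood within 5 places of a gene of the set (17.9%), compared with 0.707% of all genes outside the 100. For set B it was 4 of 20 genes (20%), compared with 0.973%. How reads shared by overlapping or near-identical genes were counted is not given in the sources used here.

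**Figure D5:**
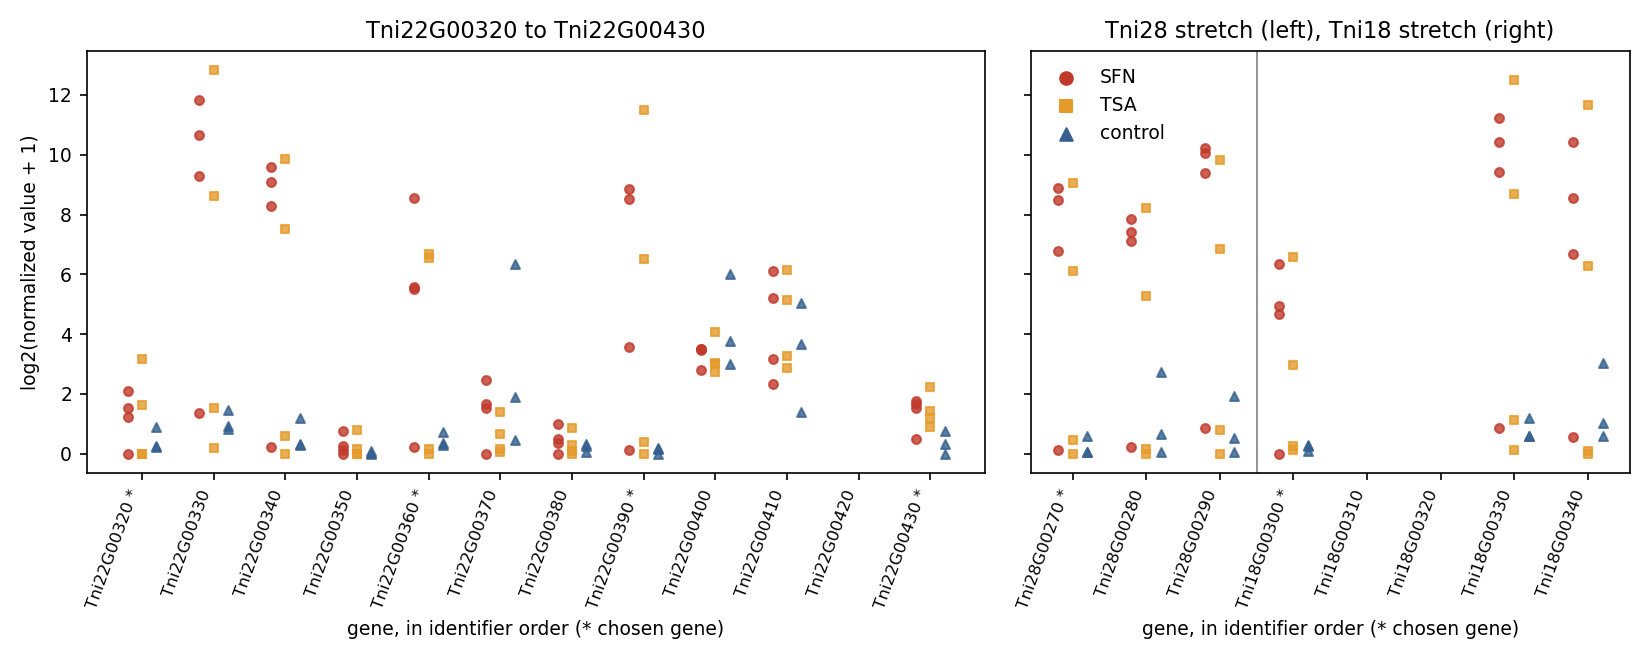
Log2(normalized value + 1) of genes in identifier order, from Tni22G00320 to Tni22G00430 (left) and around Tni28G00270 and Tni18G00300 (right, separated by a line). Points are single libraries, coloured by SFN, TSA and control; an asterisk marks a chosen gene, and genes without points were not in the normalized table. Tni22G00330, which was not chosen, reaches 7315 in TSA replicate 4.

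The direct neighbours of the 100 genes were also compared with control. The normalized table held 141 genes next to a chosen gene and not chosen themselves. Of these, 19 were under 1 in all controls and had been ranked and passed over by the rule, and the other neighbours had at least 1 control library at 1 or more, so the neighbours were not free of the choice. Under SFN, 3 of the 141 were called higher than control (2.13%), compared with 1.94% of all genes. Under TSA, 3 were called higher (2.13%), compared with 4.23% of all genes. More neighbours were called lower, with 6 under SFN (4.26%) and 22 under TSA (15.6%), compared with 3.49% and 16.2% of all genes. The comparisons share their control libraries. Tni10G00060 was called in both, with log2 fold changes of 2.03 ± 0.37 for SFN over control (SE, adjusted p = 0.0346 in edgeR) and 2.35 ± 0.38 for TSA over control (SE, adjusted p = 0.0188 in edgeR). The others called were Tni11G04760 and Tni17G04120 under SFN and Tni16G04290 and Tni28G00360 under TSA. The median log2 fold change of the 141 was 0.73 under SFN and 0.52 under TSA, against 0.09 and -0.00 for all genes. With libraries scaled by their totals alone these medians were 0.21 and 0.09 for the neighbours, against -0.42 and -0.47 for all genes. At an unadjusted p under 0.05, 29 (20.6%) were higher under SFN and 23 (16.3%) under TSA, compared with 14.9% and 13.2% of all genes. The number called depended on the test and on single libraries. Without any 1 of the 11 libraries, 0 or 1 neighbour was called higher under SFN and between 0 and 4 under TSA. Under SFN these fits called 0 of all genes, except without SFN replicate 2 (88 higher) and without TSA replicate 3 (116 higher). Under TSA, 0 of all genes were called without control replicate 1 or without TSA replicate 1, 2 or 3. The rest called between 45 (without control replicate 3) and 299 (without SFN replicate 2) of all genes higher. A count of 0 neighbours says nothing where 0 of all genes were called. Without the replicate number in the model 15 (10.6%) were called higher under SFN and 9 (6.38%) under TSA, compared with 8.02% and 6.16% of all genes. With edgeR's likelihood ratio test it was 21 (14.9%) under SFN and 13 (9.22%) under TSA, compared with 8.13% and 7.30% of all genes, and with DESeq2's Wald test 25 (17.7%) and 17 (12.1%), compared with 8.87% and 9.46%.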

How the data were processed

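The authors trimmed reads with Trimmomatic 0.39, aligned them to the *T*. *ni* genome with HISAT2 2.2.1 and counted them per gene with featureCounts. The deposited count table (14384 genes) holds raw counts. The deposited normalized signal (10610 genes) equals CPM of these counts divided by a TMM factor per library, which ran between 0.685 and 1.92, and 100% of values matched (tolerance 0.01). The *S*. *exigua* files were not used here, and 0 columns belonged to no mapped sample.

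The normalized signal was used for the choice of genes, levels and patterns, with a ceiling of 1, a pseudocount of 1 and an expression threshold of 1. Counts of the 10610 genes were fitted in R 4.3.3 with edgeR 4.0.16 (TMM, treatment and replicate number, quasi-likelihood test, Benjamini-Hochberg threshold 0.05), with DESeq2 1.42.0 as an alternative, and were tested on simulated data. Each SE was the size of the log2 fold change divided by the square root of the F statistic of the quasi-likelihood test, so it restates the p-value. The replicate term is a reading of the pairing named in the methods of the study. That study's filter (mean CPM over 10) was not applied, since it would keep 12 of the 100 genes. Named genes were the 12 of highest rule value, stretches, the 3 largest fold changes in each direction between SFN and TSA, 4 genes expressed in fewest libraries (ties by lower rule value) and the edge of the list, and others are said to be chosen after their values were seen. The 100 genes and all lists were chosen with earlier results of these data known. Alternatives were other scalings, filters, tests, thresholds and blocks, and fits without each library in turn. Figures used matplotlib 3.10.9.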

Additional observations from a re-analysis of the deposited data

Results flagged for a closer look

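Dixon's ratio, the gap between an extreme library and its nearest neighbour divided by the whole range of the group, was computed in the 4 SFN and the 4 TSA libraries for each of the 22 named genes and for the summed level of the 100 genes. Of these 46 groups, 4 passed the 95% critical value for 4 samples. Chance alone flags about 1 in 20 groups, but the count cannot be read against that share, since 3 of the 4 were genes named for being expressed in few treated libraries. Within the SFN group, SFN replicate 1 was far below the others in Tni13G00580 (ratio 0.832), and it was far above the others in Tni12G01360 (0.902) and in Tni13G01090 (0.865). Within the TSA group, TSA replicate 4 was far above the others in Tni02G02710 (0.917).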

How the results depend on the processing

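The comparison of SFN with TSA called 530 genes with DESeq2's Wald test, 29 with edgeR's likelihood ratio test, 1 with the code series as the block and 54 in the first code series alone, against 0 as reported. Neither these nor any other alternative called one of the 100 genes. Over the 100 genes, the median SFN over TSA log2 fold change was 1.82 over the 12 with a mean CPM over 10, and 0.00 to 0.67 without single libraries. Neighbours called higher under SFN numbered 15 without the replicate block, 1 with scaling by library size only, by the size factors of DESeq2 or with no filter, 25 by the Wald test, 21 by the likelihood ratio test, 0 with a mean CPM over 10, 12 with the code series as the block, 0 in the first code series and 0 to 1 without single libraries. Of all genes, 851 were called higher without the replicate block, 78 by library size only, 104 by the size factors of DESeq2 and 149 with no filter. The Wald test called 941 higher, the likelihood ratio test 863, the mean CPM filter 80 of 5445 and the code series block 706. The first code series called 0. Under TSA, neighbours called higher numbered 9 without the replicate block, 1 with scaling by library size only, by the size factors of DESeq2 or with no filter, 17 by the Wald test, 13 by the likelihood ratio test, 0 with a mean CPM over 10, 6 with the code series as the block and 0 to 4 without single libraries. Of all genes, 654 were called higher without the replicate block, 120 by library size only, 311 by the size factors of DESeq2 and 335 with no filter. The Wald test called 1004 higher, the likelihood ratio test 775, the mean CPM filter 225 of 5445 and the code series block 584. Library size alone put the median log2 fold change of all genes at -0.42 for SFN and -0.47 for TSA over control. A threshold of 3 left 0 genes expressed in all treated libraries, any read above 0 gave 74, and single libraries left out gave 13 to 20. Widening adjacency to 5 places gave 26 genes. The rule rerun kept 36 of the 100 genes with a ceiling of 0.5, 29 with a ceiling of 2, 51 by the lowest treated library, 62 with library size only, 52 in the first code series and 46 to 96 without single libraries. Without the replicate block the SFN over TSA fold change of Tni00G03640 turned to -0.016. The causes were not tested. Between libraries with the same number, deviations from the group means had correlations from -0.19 (SFN and TSA replicate 2) to 0.39 (SFN and TSA replicate 1). With different numbers they ran from -0.34 (SFN replicate 1 and TSA replicate 2) to 0.42 (SFN replicate 2 and TSA replicate 4). These values cannot show whether the numbers pair the libraries. Depth limits the low genes, since 1 normalized unit is 12.2 to 39.2 reads.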
